A study of Mus musculus with 12 samples.

Results

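The 6 orphan nuclear receptor genes described here, out of 19938 genes measured, were followed across mouse embryonic stem (ES) cells and embryoid bodies (EBs). They are the COUP-TF genes Nr2f1, Nr2f2 and Nr2f6, the testicular receptor genes Nr2c1 and Nr2c2, and Nr6a1, which encodes germ cell nuclear factor (GCNF). They were chosen by name, for known links to retinoid signalling, and each was represented by 1 probe set, the only one that names that gene alone, so no choice between probe sets was made. The 12 samples, 1 Affymetrix array each, came from a clone of D3, an ES cell line of mouse. They form 4 groups of 3 biological replicates: EBs given all-trans retinoic acid (ATRA) at a labelled 5 micromolar for 12 h, EBs given the solvent DMSO for 12 h, untreated EBs at day 4, and undifferentiated ES cells at day 0. ES cells were grown in medium with fetal bovine serum, and EBs were aggregates formed in bacteriological dishes without LIF, the cytokine that holds mouse ES cells undifferentiated. All groups come from this single clone, and from the labels it is unclear if the 12 h of treatment came on top of the 4 days or were part of them.

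These receptors bind DNA as dimers, or in the case of GCNF as a homo-oligomer, at repeats of the motif AGGTCA. COUP-TFs and testicular receptors are mostly known as repressors that compete for such repeats with the retinoic acid receptor and its partner, the retinoid X receptor. Nr2f1 and Nr2f2 are known from mouse and human embryonal carcinoma and ES cells as genes that retinoic acid induces during neural differentiation, and Nr2f2 as a gene of mesenchyme, veins and atria. GCNF is known in mouse as the repressor that silences the pluripotency gene Pou5f1 when ES cells differentiate with retinoic acid.

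The promoter windows below are shown because Nr6a1 and Nr2c1 rose together with ATRA while Nr2f1 and Nr2f2 fell together on EB formation. They are RefSeq sequences of build GRCm38.p6, the 250 bases before an annotated transcription start, and capitals mark every match to AGGTCA on either strand (TGACCT where it lies on the opposite strand). All 6 genes matched the promoter table, with 8 windows in all.
Nr6a1, upstream start, chr2:38926462-38926711, minus strand: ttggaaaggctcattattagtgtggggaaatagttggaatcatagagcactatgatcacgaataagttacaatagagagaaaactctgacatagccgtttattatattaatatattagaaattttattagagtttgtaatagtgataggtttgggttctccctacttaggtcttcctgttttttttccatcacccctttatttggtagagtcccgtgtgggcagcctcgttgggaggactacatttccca
Nr6a1, downstream start, chr2:38784516-38784765, minus strand: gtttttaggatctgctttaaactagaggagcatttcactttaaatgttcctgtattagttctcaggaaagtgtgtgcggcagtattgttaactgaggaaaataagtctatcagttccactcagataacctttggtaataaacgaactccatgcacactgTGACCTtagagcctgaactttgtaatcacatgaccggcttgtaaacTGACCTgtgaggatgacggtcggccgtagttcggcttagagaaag
Nr2c1, chr10:94147681-94147930, plus strand: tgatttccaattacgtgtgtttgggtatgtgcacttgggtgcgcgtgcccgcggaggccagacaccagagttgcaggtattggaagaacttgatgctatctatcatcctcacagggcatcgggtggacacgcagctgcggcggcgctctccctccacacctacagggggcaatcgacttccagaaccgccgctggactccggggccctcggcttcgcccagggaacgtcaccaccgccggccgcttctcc
Nr2f1, upstream start, chr13:78198874-78199123, minus strand: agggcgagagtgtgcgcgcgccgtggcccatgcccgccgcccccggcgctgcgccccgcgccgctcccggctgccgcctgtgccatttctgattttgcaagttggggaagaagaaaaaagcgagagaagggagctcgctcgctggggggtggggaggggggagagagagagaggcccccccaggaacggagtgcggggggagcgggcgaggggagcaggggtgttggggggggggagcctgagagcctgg
Nr2f2, chr7:70366747-70366996, minus strand: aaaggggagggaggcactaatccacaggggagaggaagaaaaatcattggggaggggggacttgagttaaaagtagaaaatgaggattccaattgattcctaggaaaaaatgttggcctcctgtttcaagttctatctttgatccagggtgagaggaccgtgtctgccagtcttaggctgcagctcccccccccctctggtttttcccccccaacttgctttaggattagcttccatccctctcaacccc
The search also covered the 50 bases after each start, which are not printed. Only the downstream start of Nr6a1 had matches, 2 of them on the opposite strand, which begin 91 and 45 bases before the start with 40 bases between them. Across 32817 promoter windows of the same length, 16.3% held at least 1 match and 1.81% at least 2. Direct repeats of AGGTCA with 0, 1, 2 or 5 bases between the copies, searched on both strands and each also counted as matches to the single motif, were in none of the 8 windows. Such repeats were rare everywhere, between 0.00609% and 0.0396% of all windows. The array does not tell which Nr6a1 start was used. The windows differed in base composition, with 37.6% and 42% G and C at the upstream and downstream starts of Nr6a1 and 82.4% at Nr2f6.

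Levels are given below as log2 values as deposited, with mean ± SD (n = 3 arrays per group). Differences are on the log2 scale ± SE from a limma fit to all 12 arrays (n = 3 per group). P-values were adjusted by Benjamini-Hochberg across all 19938 genes, and a gene was called at an adjusted p under 0.05. Values of different probe sets are not compared as levels. Replicate arrays correlated at 0.992 to 0.997 over all probe sets. The mean level of 14 ES cell markers lay between 11.90 and 12.02 on all 12 arrays, although the germ cell marker among them, Dppa3, averaged only 6.23 to 6.38 in the 4 groups. Of the 14, 1 rose and 4 fell with ATRA against DMSO, and 4 rose and 2 fell in EBs against ES cells. Over all genes 6.26% rose and 7.05% fell in the former comparison, and 17.8% rose and 16.9% fell in the latter. RNA was taken from whole cultures, so fewer cells of a type and less RNA per cell cannot be told apart.

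**Figure D1:**
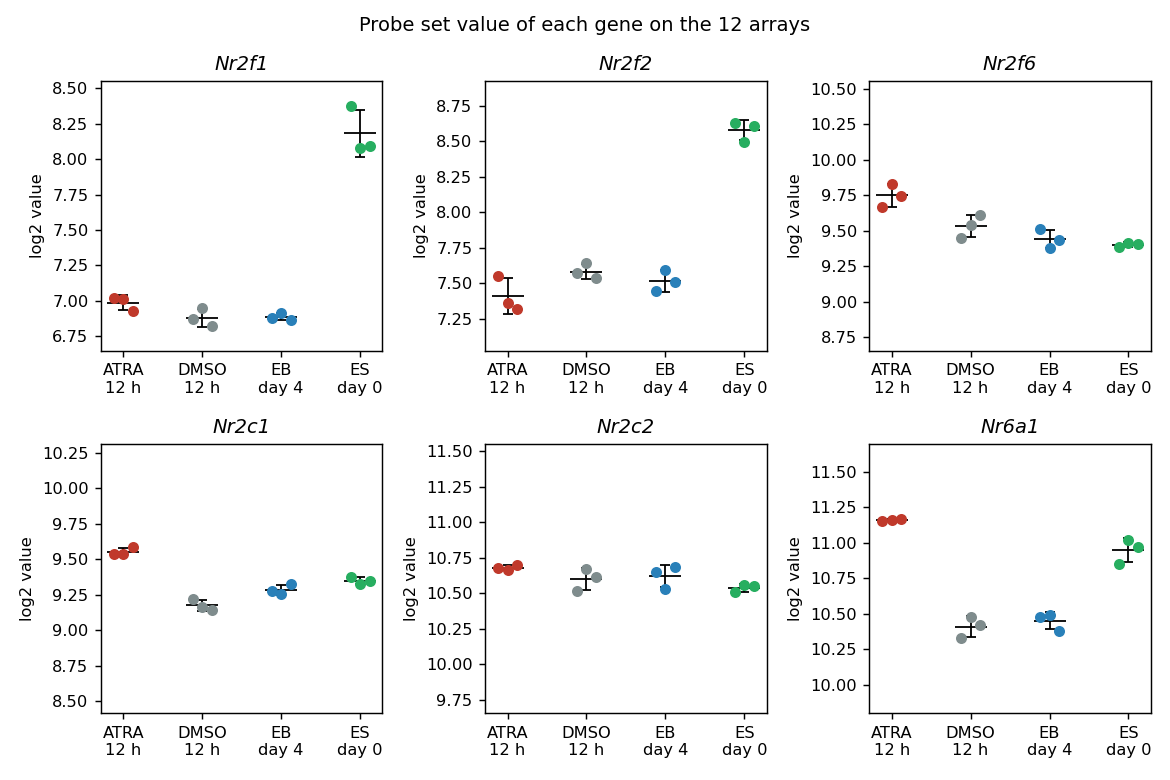
Log2 value of each of the 6 genes (y axis) on every array, by group (x axis: ATRA, DMSO, EB, ES); points are arrays and bars are mean ± SD (n = 3). Every panel spans the same height on the log2 scale. Nr2f1 and Nr2f2 stood more than 1 higher in ES cells than in untreated EBs, and Nr6a1 was highest with ATRA and lowest with DMSO and in untreated EBs.

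ATRA against DMSO set the response to 12 h of ATRA apart from that to the solvent. Of the 6 genes, 3 rose (Nr6a1, Nr2c1 and Nr2f6), 0 fell and 3 did not pass. Over all genes 13.3% were called, 6.26% higher and 7.05% lower, and the median difference of the 6 was 0.16, against 0.01 over all genes. The groups did not overlap, in the higher direction, for 3 of the 6 and, in the lower, for 0, as held for 19.6% and 20% of all genes (39.6% in either). With limma, 4 of the 6 had an unadjusted p under 0.05, Nr2f2 among them.

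Nr6a1 showed the largest response. It stood at 11.16, 11.16 and 11.17 with ATRA, against 10.33, 10.48 and 10.42 with DMSO. The groups lay far apart and the ATRA arrays nearly coincided. The rise was 0.75 ± 0.06 (1.68-fold, limma adjusted p = 2.55e-06), and 0.878% of all genes changed by more in either direction. It was the only one of the 6 genes that changed at least 1.5-fold in this comparison.

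Nr2c1, which encodes testicular receptor 2 (TR2), read 9.53, 9.54 and 9.58 with ATRA, against 9.22, 9.16 and 9.14 with DMSO. Again the groups did not overlap, and the difference was 0.38 ± 0.04 (1.30-fold, limma adjusted p = 7.23e-05). The related gene Nr2c2, which encodes testicular receptor 4 (TR4), read 10.68, 10.67 and 10.70 with ATRA, against 10.52, 10.67 and 10.62 with DMSO. Its groups overlapped by a narrow margin, and its difference of 0.08 ± 0.05 did not pass (95% confidence interval -0.04 to 0.20, limma adjusted p = 0.381). Whether the responses of Nr2c1 and Nr2c2 differ was not tested.

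Of the COUP-TF genes only Nr2f6 was called, and whether their responses differ was not tested. Nr2f6, the most divergent COUP-TF gene, known in mouse T cells as a repressor of cytokine genes, read 9.67, 9.83 and 9.75 with ATRA, against 9.45, 9.54 and 9.61 with DMSO. The groups did not overlap, and it rose by 0.22 ± 0.06 (1.16-fold, limma adjusted p = 0.0256). This call was the least firm of the 3. It ended without DMSO replicate 1 (difference 0.17, adjusted p = 0.109), DMSO replicate 2 (0.22, 0.0665), ATRA replicate 2 (0.18, 0.118) or ATRA replicate 3 (0.22, 0.0768).

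Nr2f1, which in mouse patterns the cortex and the inner ear, read 7.02, 7.01 and 6.93 with ATRA, against 6.87, 6.95 and 6.83 with DMSO. The ranges overlapped, and the difference of 0.10 ± 0.07 did not pass (95% confidence interval -0.05 to 0.26, limma adjusted p = 0.408). Nr2f2 read 7.55, 7.36 and 7.32 with ATRA, against 7.57, 7.64 and 7.53 with DMSO. Of the 3 ATRA arrays, 2 lay below every DMSO array and the other among them. Its difference was -0.17 ± 0.07 (95% confidence interval -0.32 to -0.02, limma adjusted p = 0.128). It passed only after quantile normalization (-0.23, adjusted p = 0.0181), with array weights (-0.19, 0.0463) or without ATRA replicate 1 (-0.24, 0.0345), all of them in the lower direction.

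**Figure D2:**
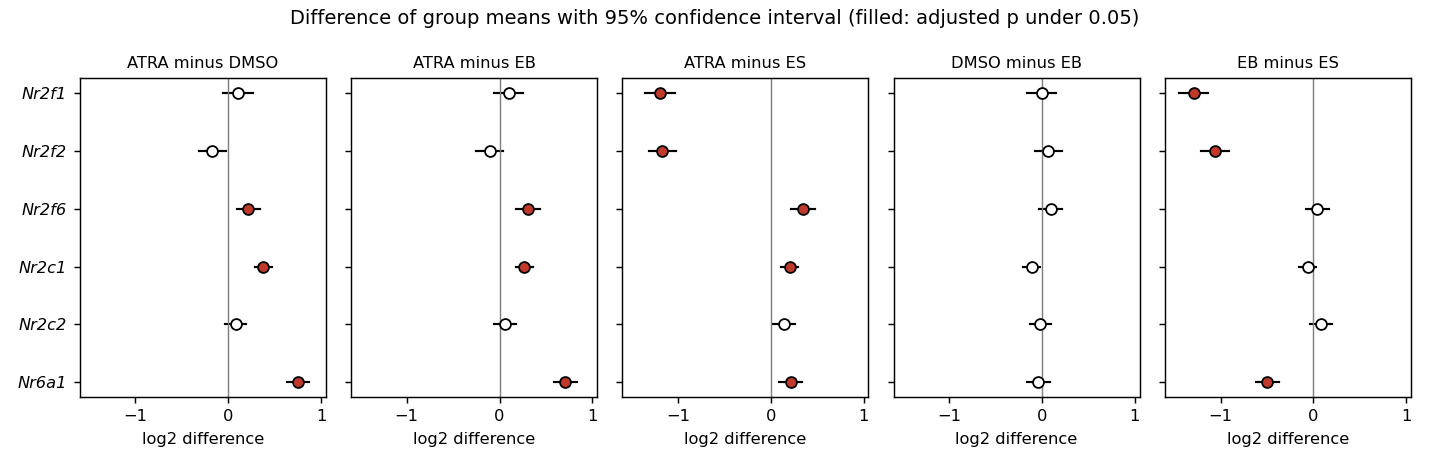
Difference of group means on the log2 scale (x axis) with its 95% confidence interval for the 6 genes (rows) in 5 comparisons (panels); filled points had an adjusted p under 0.05. Nr6a1, Nr2c1 and Nr2f6 lay above 0 with ATRA against each of the other 3 groups, and Nr2f1 and Nr2f2 more than 1 below 0 against ES cells.

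Set against untreated EBs, with the same ATRA arrays, the picture was similar for the genes that rose. Nr6a1, at 10.48, 10.49 and 10.38 in untreated EBs, was higher by 0.71 ± 0.06 with ATRA (limma adjusted p = 3.28e-06). Nr2c1, at 9.28, 9.25 and 9.32 there, was higher by 0.27 ± 0.04 (adjusted p = 8.62e-04), and Nr2f6, at 9.51, 9.38 and 9.44, by 0.31 ± 0.06 (adjusted p = 0.00249). Thus 3 of the 6 genes rose and 0 fell, where 7.79% of all genes were called higher and 10.6% lower. Nr2f1 (0.10 ± 0.07), Nr2f2 (-0.11 ± 0.07) and Nr2c2 (0.06 ± 0.05) did not pass. The groups of Nr2f1 and of the 3 genes that rose did not overlap, 4 of 6 in the higher direction and 0 in the lower. Over all genes this held for 36.7%, 15.6% higher and 21.1% lower.

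DMSO alone left the 6 genes without a call. In DMSO-treated against untreated EBs 0 of 6 passed in limma, 1 had an unadjusted p under 0.05, and 0.747% of all genes were called, 0.537% higher and 0.211% lower. That share rests on 149 genes, a count that fell to 0 in limma without EB replicate 1 or without DMSO replicate 1 and was 761 when genes with a mean value below the median were left out, while 3256 genes had an unadjusted p under 0.05 on all arrays. The gene with the low unadjusted p was Nr2c1, which read 9.22, 9.16 and 9.14 with DMSO, against 9.28, 9.25 and 9.32 in untreated EBs. These ranges did not overlap, the difference was -0.11 ± 0.04 (95% confidence interval -0.20 to -0.02, adjusted p = 0.229), and 22.4% of all genes had groups that did not overlap, 9.5% higher and 12.9% lower. The other differences lay between -0.04 for Nr6a1 and 0.09 for Nr2f6.

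Untreated day 4 EBs against ES cells measured EB formation, in which loss of LIF, aggregation and time change together. Of the 6 genes, 3 fell (Nr2f1, Nr2f2 and Nr6a1), 0 rose and 3 did not pass, where 34.7% of all genes were called, 17.8% higher and 16.9% lower (5042 higher and 2535 lower in count with median centring, against 3558 and 3367). The groups did not overlap for 4 of the 6, all lower, and for 41.3% of all genes, 21.2% higher and 20.1% lower. Nr2f1 read 6.88, 6.92 and 6.87 in EBs, against 8.37, 8.08 and 8.09 in ES cells. ES replicate 1 stood above the other 2 ES arrays, and no EB array came near any of them. The fall was -1.29 ± 0.07 (2.45-fold lower, limma adjusted p = 4.10e-08), and without ES replicate 1 it was -1.19.

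Nr2f2 read 7.45, 7.60 and 7.51 in EBs, against 8.63, 8.50 and 8.61 in ES cells, a clear separation. It fell by 1.06 on the log2 scale, SE 0.07 (2.09-fold lower, limma adjusted p = 1.18e-07). Nr6a1 read 10.48, 10.49 and 10.38 in EBs, against 10.85, 11.02 and 10.97 in ES cells, and fell as well (-0.50 ± 0.06, 1.41-fold lower, limma adjusted p = 1.66e-05). Nr2f6 (0.04 ± 0.06), Nr2c1 (-0.06 ± 0.04) and Nr2c2 (0.08 ± 0.05) did not pass, with 95% confidence intervals of -0.08 to 0.16, -0.16 to 0.03 and -0.03 to 0.20.

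Markers of fibroblasts moved in the same direction as Nr2f1 and Nr2f2. Of 19 measured markers, 16 fell and 0 rose in EBs against ES cells, where 16.9% of all genes fell and 17.8% rose. The median difference of the markers was -1.07 (18 had an unadjusted p under 0.05 in limma). Their mean log2 level was 8.23, 8.29 and 8.19 in EBs, against 9.29, 9.29 and 9.32 in ES cells. The sum of their log2 values, which restates this mean and is not a total of signal, ran from 155.6 to 157.5 in EBs and from 176.5 to 177.1 in ES cells. Dcn, the gene of the matrix proteoglycan decorin, averaged 9.44 ± 0.03 in EBs and 11.22 ± 0.13 in ES cells. Col1a1, a collagen type I gene, averaged 8.95 ± 0.10 in EBs and 9.82 ± 0.15 in ES cells. Lum, the gene of the proteoglycan lumican, was low throughout, at 4.78 ± 0.08 in EBs and 4.70 ± 0.17 in ES cells. No marker is read as 0 on an array. Whether fibroblasts were present, and any part of their RNA in the falls of Nr2f1 and Nr2f2, was not tested. Endoderm markers went the other way, with 15 of 16 higher and 1 lower in EBs.

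**Figure D3:**
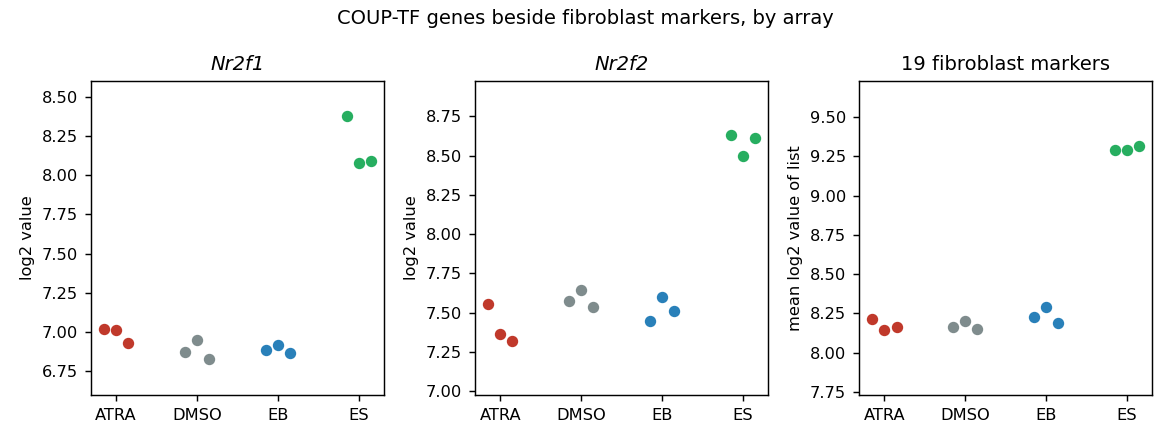
Log2 value of Nr2f1 and of Nr2f2, and mean log2 value of 19 fibroblast markers (y axes), on every array by group (x axis: ATRA, DMSO, EB, ES); each point is 1 array. In all 3 panels the 3 ES arrays stand about 1 above the 9 EB arrays, which lie close together: 6.83 to 7.02 for Nr2f1, 7.32 to 7.64 for Nr2f2 and 8.14 to 8.29 for the markers.

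ATRA-treated EBs against ES cells place the genes at the end of both steps. Nr6a1, which was lower in untreated EBs, stood at 11.16 ± 0.01 with ATRA, against 10.95 ± 0.08 in ES cells, higher by 0.21 ± 0.06 (limma adjusted p = 0.00879). Nr2c1 (0.20 ± 0.04, adjusted p = 0.00218) and Nr2f6 (0.35 ± 0.06, adjusted p = 3.82e-04) were higher with ATRA too. Nr2f1 (-1.19 ± 0.07, adjusted p = 7.30e-08) and Nr2f2 (-1.17 ± 0.07, adjusted p = 4.79e-08) were lower with ATRA than in ES cells. Thus 3 rose and 2 fell, where 36.6% of all genes were called, 17.5% higher and 19.1% lower (4758 higher and 2893 lower in count with median centring, against 3498 and 3808). The groups did not overlap for any of the 6 genes, 4 higher and 2 lower, and for 47.4% of all genes, 22.7% higher and 24.8% lower. Fibroblast markers were lower here as well, 16 of 19 with 1 higher. Nr2c2 fell just short (0.14 ± 0.05, adjusted p = 0.0552) and passed under 8 of 23 alternatives.

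The order of the 4 groups therefore differed by gene. For Nr6a1 it ran from DMSO (10.41 ± 0.07) and untreated EBs (10.45 ± 0.06), which did not differ beyond their spread, to ES cells (10.95 ± 0.08) and ATRA (11.16 ± 0.01). For Nr2c1 it ran from DMSO (9.17 ± 0.04) over untreated EBs (9.28 ± 0.04) and ES cells (9.35 ± 0.03), with no call between these neighbours, to ATRA (9.55 ± 0.03). For Nr2f6 it was ES cells (9.40 ± 0.02), untreated EBs (9.44 ± 0.07) and DMSO (9.54 ± 0.08), again with no call between neighbours, and then ATRA (9.75 ± 0.08). Nr2f1 and Nr2f2 had 1 high group, ES cells (8.18 ± 0.17 and 8.58 ± 0.07), and 3 EB groups with no call among them. Their values on the EB arrays, 6.83 to 7.02 and 7.32 to 7.64, lay below the array medians of 7.76 to 7.86 over all probe sets. Whether these values were close to background signal was not tested. Nr2c2 was the flattest, with all 12 arrays between 10.51 and 10.70.

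Among 45 measured nuclear receptor genes, these 6 included some of the larger changes. With ATRA against DMSO, 4 of the other 39 receptors rose and 5 fell, where 6.26% of all genes rose and 7.05% fell. The median difference of the 39 was 0.06. Nr6a1 had rank 2 of 45 from the top, behind Rarb, a retinoic acid receptor gene and known direct target of ATRA (1.68 ± 0.09). Rarg (0.56 ± 0.06) and Rara (0.45 ± 0.05), the other retinoic acid receptor genes, and the estrogen-related receptor gene Esrra (0.23, adjusted p = 0.0318) rose too. Nr5a2 (-0.65 ± 0.05), which encodes the activator of Pou5f1 known as Lrh1, Nr4a1 (-0.45 ± 0.05), Hnf4a (-0.42 ± 0.07), Nr1d1 (-0.31, adjusted p = 0.00567) and Nr0b1 (-0.28 ± 0.05) fell. Hnf4a had risen with DMSO against untreated EBs (0.44 ± 0.07) and differed by 0.01 ± 0.07 between ATRA-treated and untreated EBs. In EBs against ES cells, 7 of the other 39 rose and 8 fell, where 17.8% of all genes rose and 16.9% fell. The median difference of the 39 was 0.00, and Nr2f1 and Nr2f2 had the lowest differences of all 45. Next came Rarb (-0.99 ± 0.09) and the vitamin D receptor gene Vdr (-0.88 ± 0.08). Hnf4a, a regulator of visceral endoderm, rose most (1.11 ± 0.07).

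**Figure D4:**
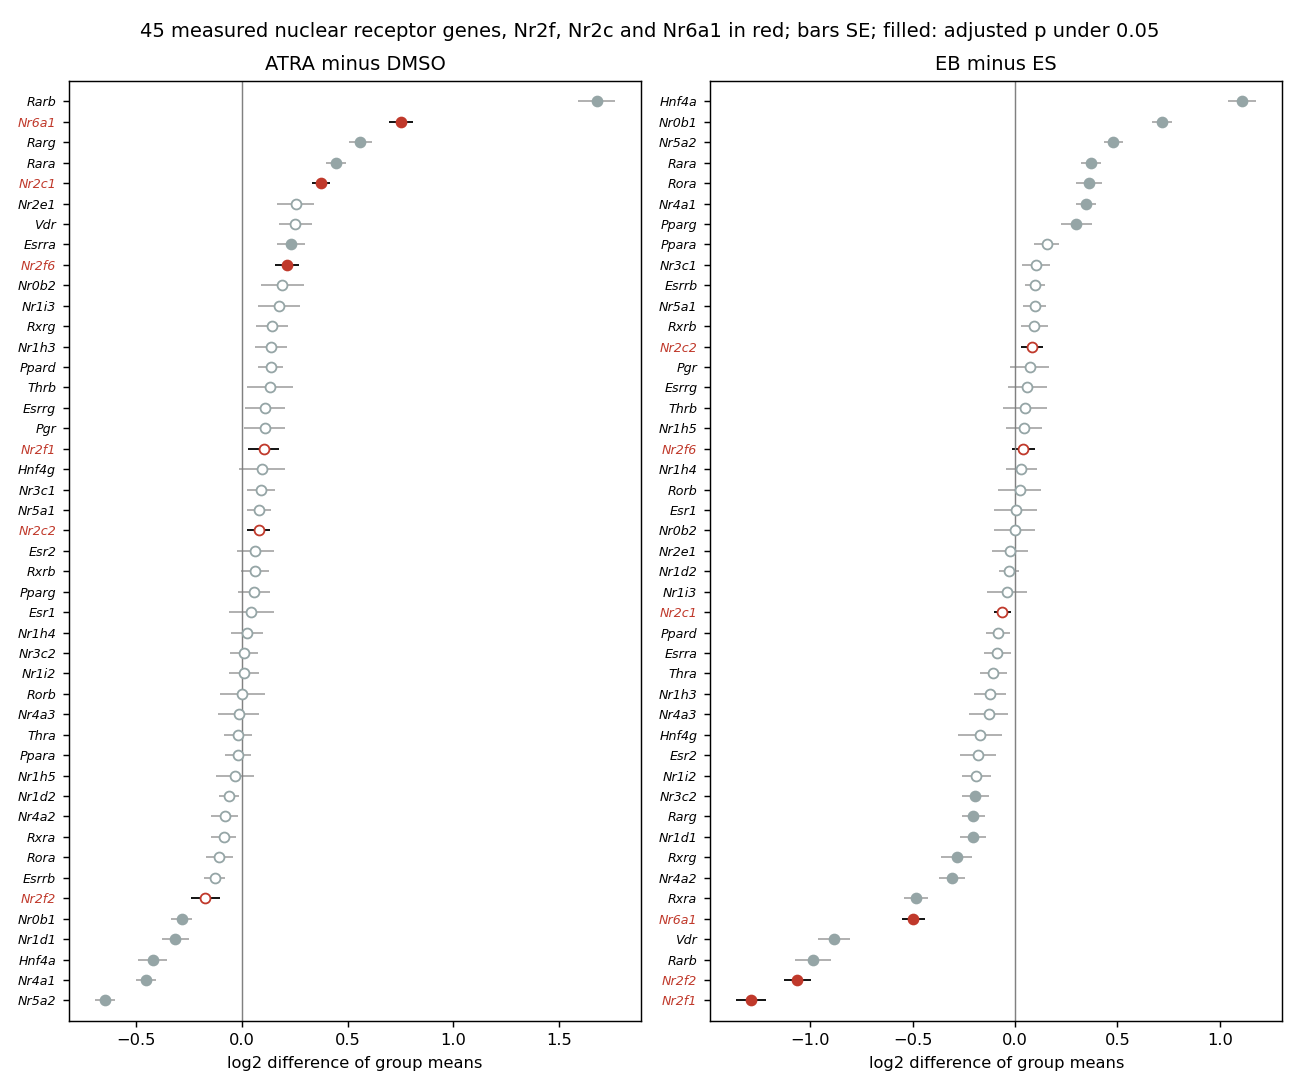
Log2 difference of group means (x axis, bars SE) for 45 nuclear receptor genes (rows, sorted) in ATRA against DMSO (left) and EB against ES (right); red marks the 6 genes described here and filled points an adjusted p under 0.05. Nr6a1 stands at 0.75 with rank 2 on the left, and Nr2f1 and Nr2f2 are the lowest on the right at -1.29 and -1.06.

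Partners and corepressors of these receptors moved in both directions with ATRA. Of 23 measured, 4 rose and 3 fell against DMSO, where 6.26% of all genes rose and 7.05% fell. The median difference of the 23 was 0.00, against 0.01 over all genes. Nrip1, a corepressor gene that binds TR2 and retinoic acid receptors, rose most (1.06 ± 0.06, adjusted p = 1.19e-07). Zfpm1 (0.31 ± 0.07), a cofactor gene of GATA proteins, rose as well. So did Mbd3 (0.18 ± 0.05), a gene of the methyl-CpG-binding domain family, and Dnmt3a (0.25 ± 0.05), a DNA methyltransferase gene. The proteins of both are linked to GCNF in mouse ES cells. Dnmt3b (-0.54 ± 0.05), the related DNA methyltransferase gene, the coactivator gene Ncoa1 (-0.28 ± 0.05) and Bcl11a (-0.41 ± 0.09), which encodes a COUP-TF-interacting zinc finger protein, fell. In EBs against ES cells 8 of the 23 rose and 4 fell, where 17.8% of all genes rose and 16.9% fell. Bcl11a (1.43 ± 0.09) and Nr2c2ap (0.41 ± 0.07), the gene of a TR4-binding protein, were higher. Zfpm2 (-0.61 ± 0.08), a COUP-TF2-binding cofactor gene, was lower.

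Of 11 genes linked to GCNF, 0 rose and 3 fell with ATRA against DMSO, where 6.26% of all genes rose and 7.05% fell. Their median difference was 0.00. Fgf4, a growth factor gene of the inner cell mass, read 12.05, 12.06 and 12.09 with ATRA, against 12.54, 12.55 and 12.59 with DMSO, and fell (-0.49 ± 0.04, adjusted p = 1.26e-05). Zfp42 (-0.57 ± 0.06) and Sox2 (-0.20 ± 0.06), both genes of pluripotent cells, fell too. Pou5f1, the best-known GCNF target, read 13.35, 13.39 and 13.42 with ATRA, against 13.36, 13.40 and 13.39 with DMSO. These overlapped, and the difference was 0.00 ± 0.04 (adjusted p = 0.956). With ATRA against untreated EBs 0 of the 11 rose and 3 fell. The list was mixed with ATRA against ES cells, where Nr6a1 was also higher (0.21 ± 0.06). There 2 rose and 2 fell, with Fgf4 (0.30 ± 0.04) higher and Zfp42 (-0.70 ± 0.06) lower, and 17.5% of all genes rose and 19.1% fell. In EBs against ES cells, where Nr6a1 fell, 2 rose and 0 fell.

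Over all genes 6.26% rose and 7.05% fell with ATRA against DMSO, and 17.8% rose and 16.9% fell in EBs against ES cells. Of 17 genes linked to COUP-TFs, 1 rose and 6 fell with ATRA against DMSO, with a median difference of -0.04. Otx2 (-2.17 ± 0.06), a homeobox gene of the epiblast and anterior brain, Sox9 (-0.26 ± 0.05), Hey2 (-0.42 ± 0.09) and Ttr (-0.54 ± 0.12) fell. So did Lamb1 (-0.18 ± 0.05) and the apolipoprotein gene Apoa1 (-0.39 ± 0.10, with overlapping groups), and Rarb rose. The falls of Ttr and Apoa1 turned with the control. Against untreated EBs both were higher with ATRA, Ttr by 0.43 ± 0.12 (limma adjusted p = 0.0315) and Apoa1 by 0.65 ± 0.10 (8.03e-04). With DMSO both were also higher than in untreated EBs (0.97 ± 0.12 and 1.04 ± 0.10). Of the 17 genes, 4 rose and 4 fell with ATRA against untreated EBs, where 7.79% of all genes rose and 10.6% fell. In EBs against ES cells 8 rose and 4 fell, with Ttr (3.19 ± 0.12), the gene of the carrier protein transthyretin, Otx2 (2.92 ± 0.06) and the apolipoprotein gene Apoa1 (1.56 ± 0.10) higher and Nrp1 (-1.83 ± 0.07), the neuropilin gene of vessels and axons, and Sox9 (-1.30 ± 0.05), a gene of cartilage and neural crest, lower. Of 11 genes linked to testicular receptors, 2 rose with ATRA against DMSO and 0 fell (4 had an unadjusted p under 0.05). Besides Rarb this was the embryonic globin gene Hbb-y (0.30 ± 0.08, adjusted p = 0.0323). Hbb-y was low, at 6.74 with ATRA and 6.44 with DMSO. Its difference with ATRA did not pass in limma against untreated EBs (0.14 ± 0.08, adjusted p = 0.304) or ES cells (0.19 ± 0.08, adjusted p = 0.098).

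The genes whose profile lay closest to Nr2f1 and Nr2f2 share the single step between ES cells and EBs by the way they were chosen. Likeness was the root mean square difference over 12 arrays after each gene was centred on its own mean. For Nr2f1 the closest were Parp12 (0.06), Nup62cl (0.08), Syce1 (0.08), Prkd1 (0.08) and Chrm3 (0.09). For Nr2f2 they were Mecom (0.06), Pcdh7 (0.07), B2m (0.07), Gnao1 (0.08) and Epb41l3 (0.08). The 2 lists held no gene in common. Nr2f1 and Nr2f2 lay 0.15 apart, so that Nr2f2 had rank 82 for Nr2f1 and Nr2f1 had rank 128 for Nr2f2. These ranks were among the genes that remained of the 19938 measured once predicted genes and some gene families were left out. The group means of the other 4 genes spanned under 1 on the log2 scale, and no like genes were sought for them.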

How the data were processed

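Total RNA of 12 samples was labelled as biotinylated single-stranded cDNA with a WT Expression kit, per the labels' protocols. The authors deposited 1 table of log2 values for 35556 probe sets. That the scale is log2 was read from their range (2.30 to 14.7). For background correction, normalization and summarization the sources used here give no method. Array medians were 7.76 to 7.86 and interquartile ranges 3.50 to 3.65.

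Gene names came from GEO's platform annotation: 21789 probe sets had 1 symbol, 1621 several and 12146 none there. Gene identifiers of 21698 were found in a RefSeq table, and 0 symbols changed. Among single-symbol probe sets of a gene the one of highest mean was kept, 19938 in all, with no filter on low values. Models were fitted with limma 3.58.1 (R 4.3.3) (a mean per group, contrasts, default eBayes), two-sided, on 8 residual degrees of freedom and a prior of 3.93. The code was tested on simulated data. The number of arrays limits precision, and p-values rest on the spread of replicates labelled biological.

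The members, gene lists, tests and alternatives were chosen with earlier results of these data known. Named are the 6 genes and, for each list, up to 6 called genes with the lowest adjusted p in the comparison described. Also named are the 5 nearest profiles of a gene whose group means span at least 1. Those profiles leave out predicted genes, microRNAs, major urinary protein genes, and vomeronasal or olfactory receptors. Not every allowed gene is printed. Esrra, Nr1d1, Mbd3, Mbd2, Dnmt1, Lamb1, Pou5f1, Dppa3, Lum, Col1a1 and the neighbouring genes were named after their values were seen. Some genes of the lists were not analysed here. Other lists were markers of ES cells, endoderm, neural cells, and mesoderm and endothelium. Alternatives were quantile normalization, median centring, a filter on mean value, other treatments of multiple probe sets, array weights, a robust prior with an intensity trend, a fit to the compared groups alone, a block for the replicate number, leaving out single arrays, and stricter limits (1.5-fold, or an adjusted p of 0.01).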

Additional observations from a re-analysis of the deposited data

How the results depend on the processing

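The differences of the 6 genes in 5 comparisons, 30 results, were recomputed under 22 or 23 alternatives each, which gave 680 values. Of these, 656 kept direction and side of the threshold, 5 lost the call, 11 gained it and 8 changed sign, the last only for differences near 0 between DMSO-treated and untreated EBs. For Nr2f1 that difference was 0.0562 after quantile normalization, 0.0044 with median centring, 0.0056 with array weights and 0.0073 without ES replicate 2 and EB replicate 2, and leaving out 1 array gave -0.0411 to 0.0222. For Nr2c2 leaving out 1 array gave -0.0651 to 0.0225. For ATRA against DMSO, Nr2f2 gained a call after quantile normalization (-0.23) and with array weights (-0.19), and leaving out 1 array gave -0.24 to -0.13. Nr2f6 lost its call at an adjusted p of 0.01 (0.22, adjusted p = 0.0256), and leaving out 1 array gave 0.17 to 0.26. For ATRA against ES cells, Nr2c2 gained a call after quantile normalization (0.14), median centring (0.20), with a filter at the median of mean value (0.14), with an intensity trend (0.14), array weights (0.13) and only the 2 groups compared (0.14), and leaving out 1 array gave 0.13 to 0.15. The cause was not tested. Array weights were uneven, at 7.25 for ES replicate 3 against 0.289 and 0.459 for ES replicates 1 and 2. Results with array weights thus lean on 1 ES array. With a 1.5-fold limit 1 gene was called for ATRA against DMSO, 1 for ATRA against untreated EBs and 2 for ATRA against ES cells. Nr2f1 and Nr2f2 lie below the median of mean value and have no result under that filter.

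Over all genes, the count for ATRA against DMSO was 2655, against 4311 with array weights, 1605 at an adjusted p of 0.01 and 342 with the 1.5-fold limit. For ATRA against untreated EBs it was 3673, against 2126 and 372 under those limits, and for ATRA against ES cells 7306, against 11052 with array weights and 1501 with the fold limit. For EBs against ES cells it was 6925, against 1433 with the fold limit. For DMSO against untreated EBs 149 ranged from 0 (without EB replicate 1 or DMSO replicate 1) to 761 (genes above the median), and leaving out 1 array moved it by over 1.5 times except for ES replicate 2 (136) and DMSO replicate 2 (128). Same-numbered arrays deviated together, at a correlation over 0.1, in 2 of 15 pairs (-0.13 to 0.51). Both pairs were of EBs and ES cells, at 0.30 for replicate 1 and 0.51 for replicate 2, with -0.07 for replicate 3. The main fit did not pair samples by number, so it leaves out any pairing of these arrays. With the replicate number as a block, 3, 3, 5, 0 and 3 of the 6 genes were called in ATRA against DMSO, EB and ES, DMSO against EB, and EB against ES, the same counts as without it, while the count of all genes for DMSO against EB was 62.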

Other observations

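Of the 12 nearest measured protein-coding neighbours of the 6 receptor genes, 0 rose and 2 fell in limma with ATRA against DMSO, where 13.3% of all genes were called. Nr5a1, the gene of another orphan receptor, and Olfml2a flank Nr6a1 on chromosome 2. With ATRA against DMSO they differed by 0.08 ± 0.06 and 0.22 ± 0.08 and did not pass (adjusted p = 0.411 and 0.0947). On chromosome 10, Fgd6 and Ndufa12 beside Nr2c1 differed by -0.01 ± 0.05 and -0.04 ± 0.06. Mctp2, which lies beside Nr2f2 on chromosome 7, fell with ATRA (-0.57 ± 0.08, adjusted p = 3.51e-04) and rose in EBs against ES cells (0.77 ± 0.08), where Nr2f2 fell. Arrdc3, beside Nr2f1 on chromosome 13, also fell with ATRA against DMSO (-0.14 ± 0.04, adjusted p = 0.0425) and rose in EBs against ES cells (0.56 ± 0.04).

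Some measured genes lie within or across the receptor genes. The microRNA genes Mir181a-2 and Mir181b-2 lie within Nr6a1 on the opposite strand, and their probe sets differed by 0.28 ± 0.10 and -0.02 ± 0.11 between ATRA and DMSO (limma adjusted p = 0.0993 and 0.940). Such probe sets read transcripts of the locus and need not measure the mature microRNA. Mrps25, a mitochondrial ribosome gene that overlaps Nr2c2, read 9.72, 9.78 and 9.80 with ATRA, against 10.11, 10.03 and 9.97 with DMSO, and fell (-0.27 ± 0.06, adjusted p = 0.00741). Nr2c2 itself did not pass in that comparison. The long non-coding RNA B130024G19Rik, which overlaps Nr2f2, was not called in any of the 5 comparisons, and its difference in EBs against ES cells was -0.14 ± 0.06 (adjusted p = 0.104).

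Over all genes 6.26% rose and 7.05% fell with ATRA against DMSO, and 7.79% rose and 10.6% fell with ATRA against untreated EBs. With DMSO against untreated EBs 0.537% rose and 0.211% fell. Of 13 neural markers, 3 rose and 1 fell with ATRA against DMSO, with Elavl3 (0.55 ± 0.04), Msi1 (0.53 ± 0.05) and Pax6 (0.70 ± 0.09) higher and Map2 (-0.42 ± 0.09) lower. Of 14 mesoderm and endothelium markers 2 rose and 2 fell, and of 19 fibroblast markers 2 rose and 5 fell. Of 16 endoderm markers 2 rose and 6 fell with ATRA against DMSO (median -0.20), but 7 rose and 0 fell with the same ATRA arrays against untreated EBs (median 0.11; 9 had an unadjusted p under 0.05). In DMSO-treated against untreated EBs 6 of these endoderm markers rose and 0 fell (limma, 10 of the 16 with an unadjusted p under 0.05). None of the 6 receptor genes was called there. Without EB replicate 1 or without DMSO replicate 1, 0 genes of the series were called in this comparison, so none of the endoderm calls held. The mean level of the 16 endoderm markers was 10.20, 10.01 and 10.15 with DMSO, against 9.66, 9.85 and 9.76 in untreated EBs.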
